A study of Mus musculus with 14 samples.

Results

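The regions described here were short hypomethylated regions (HMRs) of the autosomes in single-cell clones of the mouse mammary carcinoma line 4T1. An HMR is a stretch of the genome in which the cytosines of CpG dinucleotides carry little methylation. A region was taken as short when its deposited end minus its start was under 1000 bp, on chromosomes 1 to 19. In all, 3207 of 97247 autosomal HMRs, or 3.30%, were short, and the other 94040 are called longer below. The complete table held 101564 HMRs. The labels call clones E and T intravasating, able to enter the blood vessels when 23 clones were assessed as a pool, and call the remaining clones, I, K, L and P, non-intravasating. Each clone was grown from 1 sorted cell of 4T1, so each capacity is represented by 2 or 4 single-cell lines, and all were untreated cells in the same serum-containing medium. Genomic DNA was bisulfite converted and sequenced in 2 rounds per clone, and the table gave 1 level per HMR and clone, a fraction from 0 (no methylation) to 1. The parental line was not analysed here.

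In mammalian cells most CpG cytosines are methylated by DNA methyltransferases, and the exceptions cluster in regions held free of methylation. Wide regions of low methylation are often CpG islands at promoters, while narrower ones are often distal sites occupied by transcription factors, such as enhancers. Tumour cell lines can also lose methylation over large domains that border on methylated sequence. The build of the HMR coordinates was not established (HMRs of chromosome 7 reached 152.487 Mb, past the last gene of GRCm38 at 145.324 Mb), so no HMR was placed in a gene, exon or intron. Whether a given short HMR is a promoter or a distal site is therefore not known here.

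Short HMRs ranged from 29 to 999 bp, with a median of 774 bp and quartiles of 602 and 890 bp, against a median of 5119 bp for longer HMRs. They covered 2333947 bp in all, and no HMR of the table overlapped another. Short HMRs lay farther from their neighbours. The median distance to the nearest HMR was 8230 bp for short and 2450 bp for longer HMRs, and 26.7% of short against 9.68% of longer HMRs had no other HMR within 20000 bp. The share of HMRs that were short was lowest on chromosome 1, at 1.95%, and highest on chromosome 10, at 5.69%.

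No read counts came with the levels, so the depth behind each value is unknown and no counting interval can be given. An HMR listed at exactly 0 may be free of methylation or may lack a usable estimate, and these cannot be told apart. The levels were coarse. Of the 10686 levels above 0 in short HMRs, 37.5% lay within 1e-05 of a fraction with a denominator of at most 10, against 34.0% in longer HMRs. Exactly 0.5 was listed for 4.42% of the levels above 0 in short HMRs and for 1.69% in longer ones.

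Short HMRs were listed at 0 more often than longer HMRs in every clone. Clone E listed 44.5% of short against 24.2% of longer HMRs at 0, and clone T 48.3% against 33.5%. In the non-intravasating clones the shares were 47.1% of short against 30.1% of longer HMRs in clone I, 47.0% against 34.4% in clone K, 33.5% against 29.7% in clone L and 46.4% against 31.5% in clone P. Clone L stood apart by its few zeros among short HMRs, while the other 5 clones lay between 44.5% and 48.3%. The mean share was 44.5% ± 5.54 for short and 30.6% ± 3.64 for longer HMRs (SD over 6 clones), a difference of 13.9 ± 5.60 percentage points. The difference was positive in 6 of 6 clones, and the exact two-sided sign-flip permutation test over clones gave p = 0.0312, the smallest that 6 clones allow. Adjusted by Benjamini-Hochberg over the 5 tests of this kind that were run, it was 0.0781, so the difference does not pass the correction. By chromosome, clones E, T, I, K and P had more zeros among short HMRs on 19 of 19 chromosomes and clone L on 13. Against HMRs of 1000 to under 5000 bp alone the difference was 6.96 percentage points (exact sign-flip p = 0.0625).

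The mean level of short HMRs put the clones in another order than the mean level of longer HMRs. Short HMRs averaged 0.142 in clone E, 0.111 in clone T, 0.153 in clone I, 0.144 in clone K, 0.186 in clone L and 0.142 in clone P. Longer HMRs averaged 0.196 in clone E, 0.123 in clone T, 0.175 in clone I, 0.157 in clone K, 0.108 in clone L and 0.162 in clone P. Clone L was the highest of 6 clones over short HMRs and the lowest over longer ones, and clone E had rank 5 over short and rank 1 over longer ones. Clone T was low in both classes. Over levels above 0 alone, clone L was not the highest for short HMRs. There clone I averaged 0.289 and clone L 0.280, and the medians were 0.25 in clones I and K and 0.247 in clone L. The excess of clone L over the mean of the other 5 clones was 0.0477 over all short HMRs and 0.0204 over their levels above 0. Its rank over all short HMRs thus included its fewer zeros, and zeros may be missing estimates. With zeros included, short minus longer was positive in 1 of 6 clones, at 0.0782 in clone L. It lay between -0.0544 in clone E and -0.0117 in clone T in the other 5. Over all clones the difference was -0.00709 ± 0.0446 (SD, n = 6; exact sign-flip permutation p = 0.688, two-sided, adjusted 0.80). It was -0.0241 without clone L and 0.00237 without clone E. The sign depended on the zeros. Over levels above 0 alone, short HMRs averaged higher than longer ones in every clone but E. The means were 0.256 for short against 0.259 for longer HMRs in clone E and 0.215 against 0.185 in clone T. They were 0.289 against 0.250 in clone I, 0.272 against 0.240 in clone K, 0.280 against 0.154 in clone L and 0.265 against 0.236 in clone P.

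**Figure D1:**
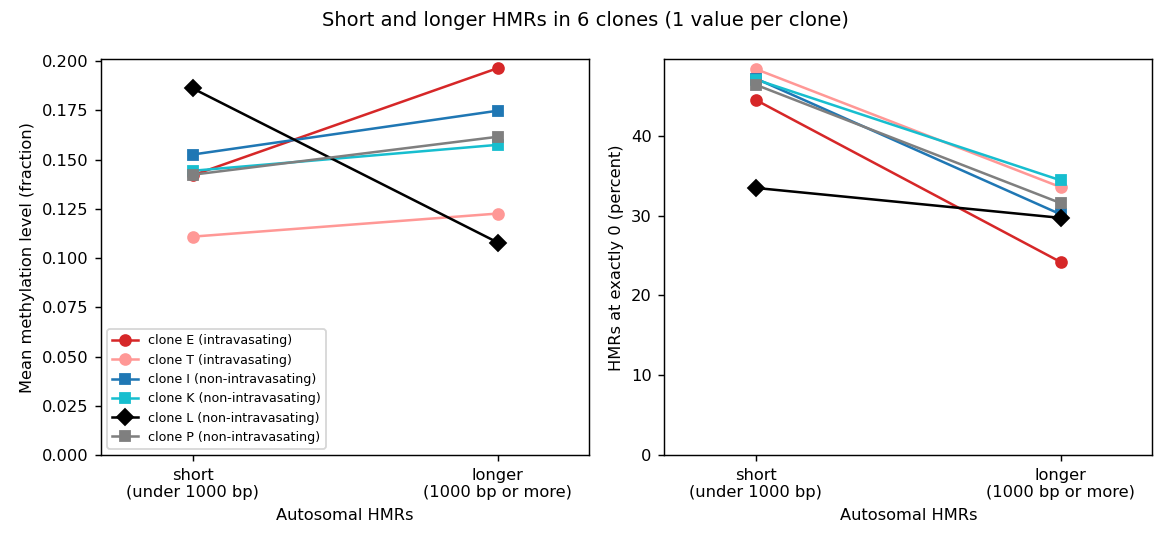
Mean methylation level (left, fraction) and the percentage of HMRs at exactly 0 (right) over short and longer autosomal HMRs, with 1 line per clone; circles are intravasating, squares and the diamond non-intravasating clones. Clone L crosses the other lines, at 0.186 over short and 0.108 over longer HMRs; the points of clones E and P coincide over short HMRs, at 0.142.

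The place of clone L was seen on nearly every chromosome. Over longer HMRs its level lay below the mean of the other 5 clones, at -0.0546. Among short HMRs clone L had the highest mean of the 6 clones on 18 of 19 chromosomes, the exception being chromosome 18, where clone I was highest. Clone L also had the fewest zeros among short HMRs on all 19 chromosomes, and clone T had the lowest mean on all 19. Among longer HMRs clone L had the lowest mean on 16 chromosomes and clone T on the other 3, while clone E had the highest on all 19. The difference between clone L and the others ran from 0.0139 to 0.0751 over short HMRs and from -0.0979 to -0.0328 over longer HMRs of single chromosomes, without overlap. Chromosomes of the same clone are not independent samples, so these counts describe the clone and test nothing. The 63 short HMRs of chromosome X, which are not members, had means of 0.163 in clone E, 0.114 in clone T, 0.0977 in clone I, 0.0955 in clone K, 0.232 in clone L and 0.125 in clone P. Clone L was again the highest there.

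**Figure D2:**
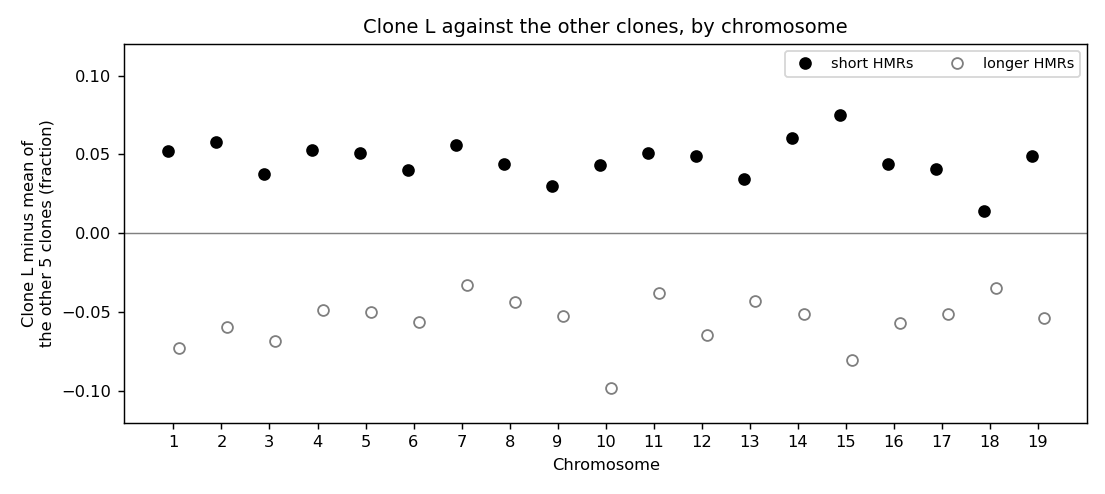
Mean level of clone L minus the mean of the other 5 clones (fraction) on each autosome, for short HMRs (filled) and longer HMRs (open). Short HMRs lie above 0 on all 19 chromosomes, between 0.0139 and 0.0751, and longer HMRs below 0 on all 19.

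Levels changed steeply with length below 1000 bp, and the limit itself marked no step. The 485 short HMRs under 500 bp, 15.1% of all short ones, averaged 0.265 in clone E, 0.222 in clone T, 0.286 in clone I, 0.253 in clone K, 0.310 in clone L and 0.260 in clone P. The 2722 short HMRs of 500 to under 1000 bp averaged 0.120 in clone E, 0.0912 in clone T, 0.129 in clone I, 0.125 in clone K, 0.164 in clone L and 0.121 in clone P. With the limit set at 500 bp, the shorter class was higher than all other autosomal HMRs in 6 of 6 clones, by 0.113 on average (exact sign-flip p = 0.0312, the smallest that 6 clones allow). The share at 0 then differed by only -1.22 percentage points (exact sign-flip p = 0.531). HMRs just inside the limit, the 375 of 950 bp or more, had means of 0.0924 in clone E, 0.0689 in clone T, 0.101 in clones I and K, 0.131 in clone L and 0.0947 in clone P. The 429 HMRs just outside, longer by less than another 50 bp, had 0.0887 in clone E, 0.0691 in clone T, 0.0935 in clone I, 0.0900 in clone K, 0.122 in clone L and 0.0858 in clone P.

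Past the limit the mean went on down to the bin of 1250 to under 1500 bp, where it was 0.0765 in clone E, 0.0546 in clone T, 0.0775 in clone I, 0.0779 in clone K, 0.0839 in clone L and 0.0740 in clone P. Zeros were most frequent in that bin too, from 57.6% of HMRs in clone L to 66.3% in clone T. With greater length all clones climbed again, up to bins between 3000 and 10000 bp, and they parted as they did so. Clone L had the highest mean in every bin below 1500 bp and the lowest in every bin of 2000 bp or more, whereas clone E was the highest in every bin of 1500 bp or more. At 5000 to under 10000 bp clone E was at 0.228 and clone L at 0.112.

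**Figure D3:**
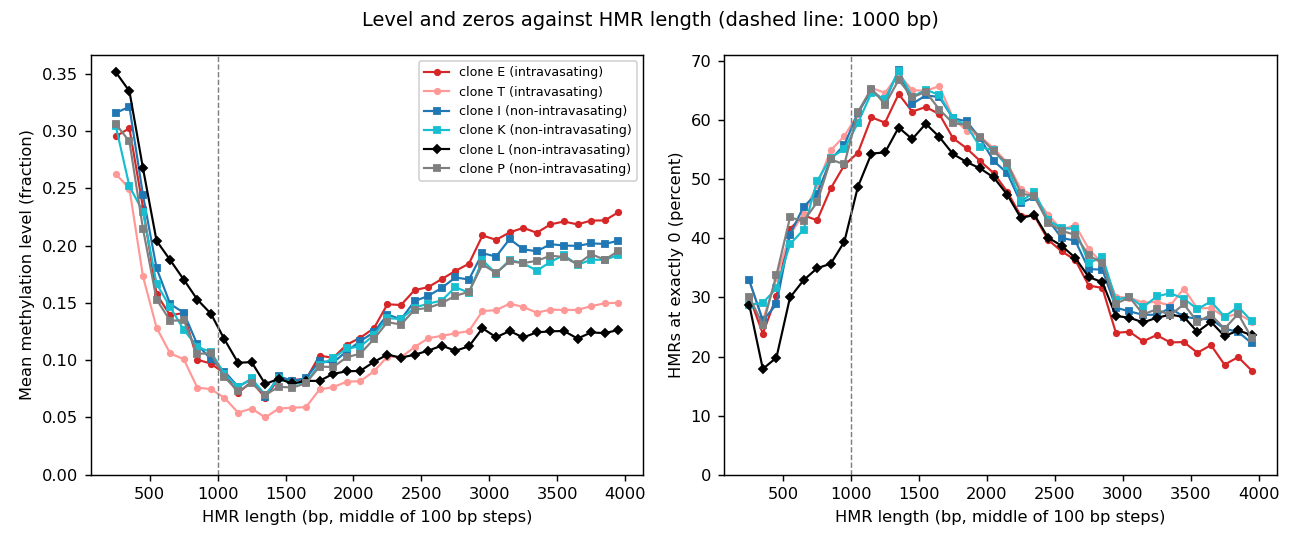
Mean methylation level (left, fraction) and percentage of HMRs at exactly 0 (right) in steps of 100 bp of HMR length, starting at 200 bp, with 1 line per clone and the limit of 1000 bp dashed. Levels are lowest in the step from 1300 bp, and zeros are most frequent there too, or for clone L in the step from 1500 bp. On the left, clone L is on top at the short end and at the bottom at the long end. On the right, it has the fewest zeros, or is tied, at the short end and lies among the other clones at the long end.

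Short HMRs close to another HMR had higher levels than isolated ones in every clone. The 437 short HMRs with another HMR within 1000 bp averaged from 0.177 in clone T to 0.261 in clone L, and the 856 with none within 20000 bp from 0.0985 in clone T to 0.178 in clone L. Clone L was the highest and clone T the lowest in each of the 4 distance classes of short HMRs. Among HMRs of 1000 to under 5000 bp, clone E was the highest in each class, and clone L was the lowest in 3 of 4.

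Fewer short HMRs were above 0 in all clones. Of the short HMRs, 720 (22.5%) were at 0 in all 6 clones and 1051 (32.8%) were above 0 in all 6, against 17.7% and 52.2% of longer HMRs. Being at 0 in all clones was most frequent just past the limit, not among short HMRs. The share was 26.1% at 750 to under 1000 bp, 41.2% at 1000 to under 1250 bp and 49.2% at 1250 to under 1500 bp. At 5000 to under 10000 bp it was 9.49%. The share above 0 in 1 clone alone was 10.4% of short HMRs (335) and 4.70% of longer ones. Clone L was that lone clone in 168 of the 335, or 50.1%, with a level between 0.0135 and 1 and a median of 0.10. The other lone clones were E in 45, T in 38, I in 22, K in 29 and P in 33. Among longer HMRs clone E was the most frequent lone clone, at 40.7%, and clone L made up 22.4%. The reverse case, 1 clone at 0 and the rest above it, was most frequent for clone T (103 short HMRs) and least frequent for clone L (19). Short HMRs at 0 in all clones had a median length of 823 bp, and those above 0 in all clones one of 711 bp.

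**Figure D4:**
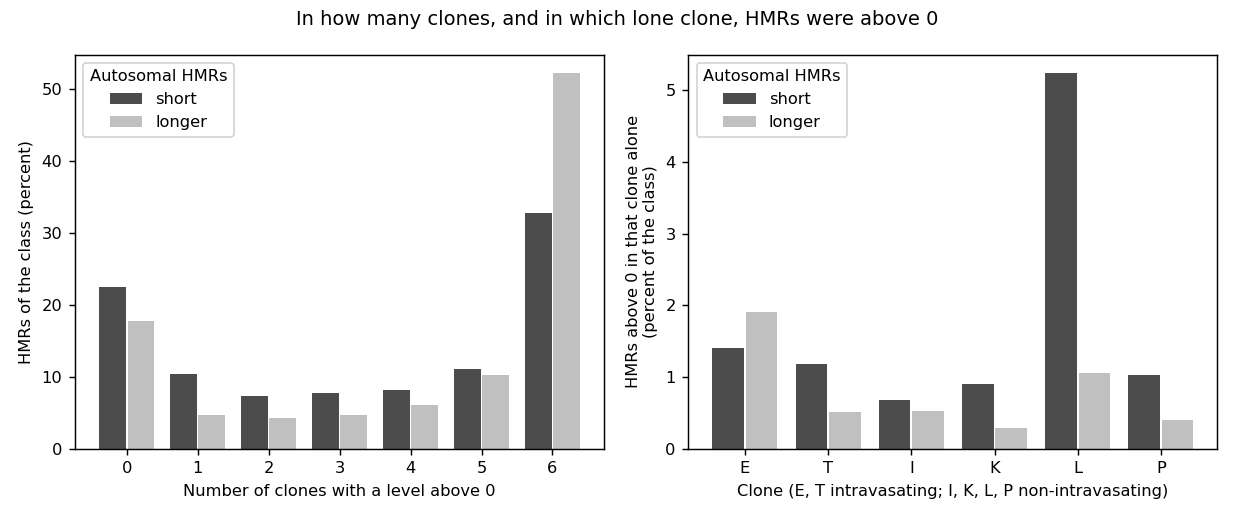
Percentage of short and longer autosomal HMRs by the number of clones with a level above 0 (left), and percentage above 0 in a named clone alone (right); bars are shares of all HMRs of the class, with no error since each is a single count. Above 0 in all 6 clones were 32.8% of short and 52.2% of longer HMRs, and clone L alone was above 0 in 5.24% of short and 1.05% of longer HMRs.

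The distance of each clone to the others was larger over short than over longer HMRs. The distance between clones was taken as the mean absolute difference of levels. From each clone to the other 5 it averaged 0.0858 in clone E, 0.0926 in clone T, 0.0855 in clone I, 0.0862 in clone K, 0.0989 in clone L and 0.0826 in clone P over short HMRs. Over longer HMRs it was 0.0852 in clone E, 0.0760 in clone T, 0.0767 in clone I, 0.0748 in clone K, 0.0851 in clone L and 0.0725 in clone P. The mean was 0.0886 ± 0.00602 for short and 0.0784 ± 0.00546 for longer HMRs (SD over 6 clones). The difference of 0.0102 ± 0.00547 was positive in 6 of 6 clones, though it was only 0.000586 in clone E (exact sign-flip permutation p = 0.0312, two-sided, the smallest possible; adjusted 0.0781 over 5 tests, which does not pass). The 6 distances share their pairs, so they are not fully independent. At a limit of 2000 bp this difference turned to -0.0231.

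Pairs of clones were also ordered differently. Clones K and P were the closest pair over short HMRs, at 0.0752, and clones T and L the farthest of the 15 pairs, at 0.112. Over longer HMRs clones T and L were the closest, at 0.0623, and clones E and L the farthest, at 0.107. The intravasating pair, E and T, had rank 5 from the closest over short HMRs (0.0855) and rank 14 over longer ones (0.0922). Pearson r of levels across HMRs, which share regions and libraries, was lowest for T and L in both classes, at 0.621 over short and 0.664 over longer HMRs, and highest for E and I, at 0.770 and 0.818. Wide spreads were more frequent among short HMRs. The highest and lowest clone lay 0.5 or more apart at 257 short HMRs (8.01%) against 1.81% of longer ones, and from 0 to 1 at 9 short HMRs and 1 longer HMR. Under 500 bp the share with such a spread was 19.8%. The median spread was the same in both classes, 0.167.

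Single clones stood far from the rest at 56 short HMRs in the upward direction and 54 in the downward direction. Here a clone counts as standing apart when its level and the median level of the rest differ by 0.5 or more. Upward it was 1.75% of short HMRs, where 0.773% of all HMRs in the table passed, and downward it was 1.68%, where 0.241% passed. HMRs outside the autosomes weigh on both backgrounds, since among longer autosomal HMRs the shares were 0.194% upward and 0.0936% downward. Clone L was the clone above in 28 of the short HMRs, and clone T was the clone below in 31. The others were above in 4 (P) to 10 (E) and below in 1 (L) to 12 (E). Some HMRs count for more than 1 clone. In 24 of the 31 cases clone T was at exactly 0.

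Examples by the fixed naming rule show both directions. On chromosome 15 the HMR from 43219173 to 43219294, 121 bp long, was at 1 in clone L and at 0 in the other 5 clones. On chromosome 4 the HMR from 155335962 to 155336675 (713 bp) was at 0.70 in clone L and likewise at 0 in the rest. Clone T was at 0 in the HMR on chromosome 2 from 33608963 to 33609764 (801 bp), where clone E was at 0.714, clone I at 0.875, clone K at 0.833, clone L at 0.90 and clone P at 0.846. It was also at 0 on chromosome 16 from 20241201 to 20241669 (468 bp), against 0.625 in clone E and 0.667 to 0.857 in the non-intravasating clones. Clone K was at 0.818 on chromosome 7 from 87975044 to 87975884 (840 bp), with 0 in clones E and T, 0.0455 in clone I, 0.286 in clone L and 0.30 in clone P. Clone E was at 0.182 on chromosome 16 from 34572927 to 34573088 (161 bp), where the other 5 lay between 0.667 and 0.810. These are lone clones, so no test can be given for any of them. Clones I and P had such HMRs as well. On chromosome 13 from 55057335 to 55057761 (426 bp) clone I was at 0 and the others at 0.55 to 0.75, and on chromosome 11 from 4957851 to 4958067 (216 bp) clone P was at 1 and the others at 0.25 to 0.60.

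The ends of the length and level range were also looked at. The 3 shortest members were 29, 39 and 43 bp long. The one of 29 bp, on chromosome 3 from 80687026 to 80687055, was at 0.20 in clone L and at 0 in the rest, and the other two were at 0 in all 6 clones. Despite the name, 4 short HMRs and 1 longer HMR were at 0.5 or more in every clone. The HMR on chromosome 10 from 109892841 to 109892994 (153 bp) was at 0.631 in clone E, 0.732 in clone T, 0.80 in clone I, 0.817 in clone L and 1 in clones K and P. On chromosome 1 the HMR from 183282718 to 183283037 (319 bp) was at 0.721 in clone E, 0.50 in clone T and 0.708 to 0.958 in the non-intravasating clones.

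The study was designed to compare intravasating with non-intravasating clones, and this comparison was then made over the short HMRs. The mean level was 0.126 ± 0.0220 (SD) over the 2 intravasating clones, against 0.156 ± 0.0204 (SD) over the 4 non-intravasating ones, a difference of -0.0299. The groups did not overlap, though clone E, at 0.1420, lay just under clone P, at 0.1423. The difference was -0.0454 without clone E, -0.0143 without clone T and -0.0199 without clone L. The share at 0 was 46.4% ± 2.73 (SD) over the 2 intravasating clones, against 43.5% ± 6.70 (SD) over the 4 non-intravasating ones, a difference of 2.90 percentage points. It was 4.83 without clone E and 0.967 without clone T, and without clone L it turned to -0.447. With 15 ways to choose 2 of 6 clones, an exact permutation test cannot go below p = 0.0667, so neither difference could pass at 0.05. The median difference of means over single HMRs was -0.00493 for short HMRs and 0 for all HMRs of the table.

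HMR by HMR, limma called 5 short HMRs higher in the intravasating clones at an adjusted p under 0.05 over all HMRs, 0.156% of the members where 0.158% of all HMRs were called in that direction. No short HMR was called lower, where 0.00197% of all HMRs were. The share of calls among short HMRs was thus close to that in the whole table. At an unadjusted limma p under 0.05 there were 156 of the 3207 short HMRs and 2683 of the 94040 longer ones. Of the 156, 112 (71.8%) were lower in the intravasating clones, and of the 2683 longer HMRs 22.0% were lower. These counts carry no correction for the number of HMRs. In neither class was the share of such HMRs above 0.05, about what the threshold lets through when no HMR differs. The split by direction is thus a description only. All 5 called HMRs were at 0 in clones I, K, L and P and had small levels in clones E and T, with 1 exception. That exception was on chromosome 2 from 173595301 to 173595966 (665 bp), at 0.50 in both clone E and clone T (limma difference 0.50, SE 0.0351, adjusted p = 0.0207). The HMR on chromosome 6 from 64599694 to 64600447 (753 bp) had levels of 0.143 (clone E) and 0.133 (clone T; limma adjusted p = 0.000947). The one on chromosome 5 from 129855230 to 129856182 (952 bp) was at 0.106 and 0.127 in these clones (limma adjusted p = 0.00869). On chromosome 9, the HMR from 80179753 to 80180545 (792 bp) was at 0.0833 and 0.0769 (limma adjusted p = 0.000421), and on chromosome 13 the one from 98708892 to 98709699 (807 bp) at 0.0667 and 0.0556 (limma adjusted p = 0.00677). Each of the 5 calls was lost under some alternative. The call on chromosome 2 was lost with logit levels (limma adjusted p = 0.320), with arcsine levels (0.0748) and without clone I (0.0617), K (0.0780), L (0.0617) or P (0.0724). After each clone was centred on its median it was the call that was kept (limma adjusted p = 0.00323), while the other 4 had adjusted p from 0.813 to 0.969. The levels on chromosome 2 were identical within each group (SD 0 in both), so no spread was measured there. Its SE came from the spread of other HMRs, which limma borrows. The 4 smaller ones rest on the spread between 2 clones, moderated in the same way. Whether the zeros of all 5 are measured is not known. Without clone I 3 short HMRs were called, without clone K 4, without clone L 5 and without clone P 2. The share of all HMRs called in these fits was not taken. Fits without clone E or clone T leave 1 intravasating clone, so their calls are not counted here.

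Short HMRs with a clear gap between the capacities were mostly lower in the intravasating clones. A total of 13 short HMRs were lower in both intravasating clones, with 0.2 or more between the nearest levels of the groups, 0.405% of the members where 0.0266% of all HMRs were. The whole table held 27 such HMRs, so 13 of 27 were short. One short HMR was higher by that gap, the one on chromosome 2 already described, or 0.0312% where 0.0433% of all HMRs were. Among longer autosomal HMRs alone the share higher was 0.0266% and the share lower 0.0149%. Counted without a minimum gap, the groups did not overlap at 220 short HMRs that were lower in the intravasating clones (6.86%, where 2.12% of all HMRs were) and at 72 that were higher (2.25%, where 3.98% were). Without clone T these counts were 346 lower and 385 higher, and without clone E 569 lower and 265 higher. Each of these leaves 1 intravasating clone. With 1 non-intravasating clone left out, the counts were 333 lower and 123 higher for clone I and 325 and 106 for clone K. They were 260 lower and 124 higher for clone L and 321 and 96 for clone P. Only without clone T were higher short HMRs more numerous than lower ones. The matching counts over all HMRs were not taken, so these counts have no background share. At the settings used for the 5 calls above, limma called none of the 13, with adjusted p from 0.197 to 1. When the fit was limited to HMRs whose clones spanned 0.1 or more, which every HMR with a gap of 0.2 does by construction, 3 short HMRs were called lower, those on chromosomes 16 and 8 described next among them. The share of all HMRs called in that fit was not taken. The 13 HMRs with a gap lay on 9 chromosomes and had a median length of 599 bp.

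On chromosome 16 the HMR from 4474848 to 4475461 (613 bp) had the widest gap. Clones E and T were at 0 there, clone I at 0.667, clone K at 0.40 and clones L and P at 0.50 (limma difference -0.517, SE 0.0759, adjusted p = 0.313; 0.0103 to 0.725 over the alternatives, called with logit levels at 0.0131, with arcsine levels at 0.0392 and after that limit at 0.0103). On chromosome 15 the HMR from 76295822 to 76296340 (518 bp) had 0.25 (clone E) and 0.143 (clone T), while clone I was at 0.667, clone K at 0.60, clone L at 0.857 and clone P at 0.80 (limma adjusted p = 1). Clones E and T were again at 0 on chromosome 8 from 18648037 to 18649005 (968 bp), where clone I was at 0.333, clone K at 0.688, clone L at 0.60 and clone P at 0.48 (limma adjusted p = 0.703; 0.0103 to 1 over the alternatives, called with logit levels at 0.0391 and after that limit at 0.0103). The levels on chromosome 17 from 84643704 to 84644510 (806 bp) were 0.0909 (clone E) and 0.0833 (clone T), and 0.364 to 0.583 in the non-intravasating clones. On chromosome 2 from 165709588 to 165710456 (868 bp) they were 0.0667 (clone E) and 0 (clone T), against 0.308 to 0.417. On chromosome 5 from 123181837 to 123182273 (436 bp) they were 0 (clone E) and 0.108 (clone T), against 0.348 to 0.528. The other 7 were 177 to 878 bp long, with gaps of 0.20 to 0.239, levels of 0 to 0.455 in the intravasating and of 0.20 to 0.778 in the non-intravasating clones.

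**Figure D5:**
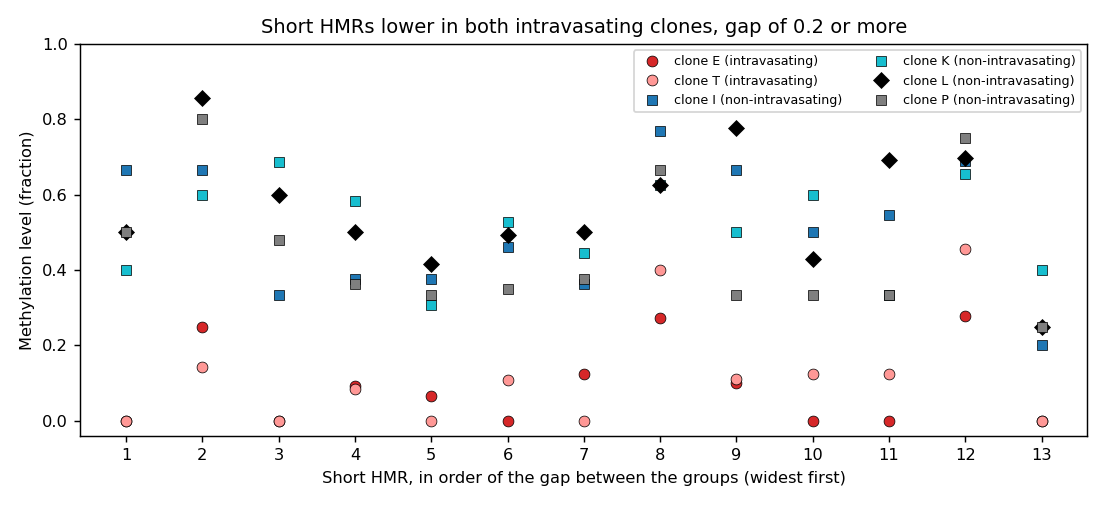
Methylation level (fraction) of each clone at the 13 short HMRs that were lower in both intravasating clones by 0.2 or more, in order of the gap; circles are clones E and T, which coincide at 0 in 3 HMRs, squares and diamonds the non-intravasating clones. In each column all circles lie under all other symbols.

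No single clone was the highest or the lowest at all of these gaps. Clone L was the highest clone, or tied, at 5 of the 13, and clone K was the highest as often. Clone T was the lowest or tied at 7, and clone E at 9. At 3 of the 13, clones E and T were both listed at 0. Without clone L, 18 short HMRs were lower by the gap of 0.2 and 2 were higher. Without clone T the counts were 39 lower and 30 higher, and without clone E 108 lower and 17 higher. Leaving out clone I gave 31 lower and 3 higher, leaving out clone P 23 and 2, and leaving out clone K 19 and 1. Among longer HMRs the gap of 0.2 gave 44 lower and 1494 higher without clone T, and 292 lower and 140 higher without clone E. With fewer clones to clear, more HMRs pass by construction. For short HMRs the lower and higher counts were nearest to each other without clone T. Whether the low mean of clone T and the high mean of clone L over short HMRs set this balance was not tested.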

How the data were processed

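Per the labels' protocols, sonicated genomic DNA was bisulfite converted with the EZ-DNA Methylation-Gold Kit and sequenced as 76 nt paired-end reads, giving 14 libraries, 2 for each of 6 clones and for the parental line. The HMR levels were deposited as a fraction from 0 to 1, with 1 column per clone. The sources used here do not state how CpG sites and rounds were combined, nor the aligner or HMR caller. The submitters' processing notes name bedtools, DESeq and mm10. However, mm10 is the build GRCm38, and HMRs of chromosome 7 reached 152.487 Mb, past its last gene there at 145.324 Mb. The coordinates printed here should therefore not be looked up as mm10 positions. Coordinates are as deposited, and whether starts count from 0 or 1 is not stated. The promoter table was not used.

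Each clone was 1 replicate. The sign-flip p-values rest on the spread between clones, and the limma p-values on that spread moderated by the spread of other HMRs. Levels were compared over all HMRs with limma 3.58.1 in R 4.3.3 (mean trend, Benjamini-Hochberg adjustment), a step tested on simulated data. Other values were computed in Python 3.11.15 with pandas 2.3.3 and NumPy 2.4.6. Named HMRs were those called (up to 10 per direction), the 6 widest gaps per direction, up to 2 standing apart per clone and direction, the 3 shortest and the 2 with the highest levels, and not all are printed. The members, rules and tests were chosen with earlier results of these data known.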

Additional observations from a re-analysis of the deposited data

Results flagged for a closer look

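Clone L lay far from the other 3 non-intravasating clones in 5 of 12 measures over short HMRs by Dixon's ratio, the gap to the nearest of the others over the whole range. Its short minus longer mean level was 0.0782, where clones I, K and P were at -0.0222, -0.0132 and -0.0193. Its share of short HMRs at 0 was 33.5%, against 47.1%, 47.0% and 46.4% in clones I, K and P. Short HMRs above 0 in clone L alone made up 5.24%, against 0.686%, 0.904% and 1.03%. Short HMRs at 0 in clone L alone made up 0.592%, against 1.81%, 2.06% and 1.87%, a ratio only just past the critical value. Clone L lay at least 0.5 above the median of the others in 28 short HMRs, against 7, 8 and 4. Chance flags about 1 in 20 groups, and these 5 measures come from the same levels, so they are not independent. The mean level of short HMRs itself, 0.186 in clone L, was not flagged, with a ratio of 0.766. The cause was not tested.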

How the results depend on the processing

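Short and longer HMRs were paired within each clone, but no analysis by round was possible because the 2 rounds of each clone share 1 column. The short minus longer mean level (-0.00709) was 0.113 with the limit at 500 bp, 0.000964 against HMRs of 1000 to under 5000 bp, 0.00227 without HMRs at 0 in all clones and 0.0422 over levels above 0, but -0.0651 with the limit at 2000 bp and -0.0752 for the median over HMRs. It ranged from -0.0241 to 0.00237 with 1 clone left out. The difference in zeros was 30.4 points with the limit at 2000 bp, -1.22 with the limit at 500 bp, 6.96 against 1000 to under 5000 bp and 12.7 without HMRs at 0 in all clones, with p = 0.0625 by the exact sign-flip test for both of the last. With 1 clone left out it was 12.6 to 15.9, where the exact sign-flip test over 5 clones cannot give less than p = 0.0625. The distance difference was -0.0231 with the limit at 2000 bp, and 0.00704 to 0.0150 with 1 clone left out. Intravasating minus non-intravasating, the mean level kept its sign under all alternatives run, and the share at 0 ranged from -0.447 to 4.83 points with 1 clone left out. The limma calls numbered 11 with logit levels, 11 with arcsine levels, 1 after centring, 0 under 500 bp (26 with an unadjusted p under 0.05), 21 under 2000 bp and 2 to 65 with 1 clone left out. HMRs with a range of at least 0.1 gave 4 calls, 1 higher and 3 lower. Over these alternatives the adjusted p of the 5 called HMRs went up to 0.320 on chromosome 2, 0.841 on 6, 1 on 5, and 0.969 on 9 and 13. HMRs with a gap, 14 in all, numbered 61 at a gap of 0.1, 4 at 0.3, 4 under 500 bp, 24 under 2000 bp and 20 to 125 with 1 clone left out. At a gap of 0.1, 8 short HMRs were higher and 53 lower, where 342 of the 94040 longer HMRs were higher and 123 lower. At 0.3, 1 short HMR was higher and 3 were lower, where 2 longer HMRs were higher and 2 lower. HMRs with 1 clone apart, 106 in all, numbered 522 at a distance of 0.3, 17 at 0.7, 22 by the gap to the nearest clone, 44 under 500 bp (9.07% of those) and 185 under 2000 bp. By alternatives chosen after seeing the data, clone L minus the other 5 was 0.0204 (levels above 0) to 0.0678 (median) over short HMRs, and over HMRs of 1000 to under 1500 bp it was 0.0198, where all longer HMRs gave -0.0546. Depth is unknown and limits every level. Apart from the limits, gaps and left-out samples, whose construction changes what is counted, the cause was not tested.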
